A study of Mus musculus with 18 samples.

Results

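The nuclear genes for proteins of the mitochondrial ribosome were described across 6 groups of mouse bone marrow cultures. Members are the protein-coding genes with an Mrpl or Mrps symbol followed by a number, found by matching the versioned Ensembl IDs of the count files to GENCODE M21. The rule found 78 genes among 55536 gene entries, 49 with a large-subunit symbol (Mrpl) and 29 with a small-subunit symbol (Mrps). A filter on low counts kept 77 of them for testing, and Mrpl53 did not pass. The genes lie on 17 chromosomes, 11 of them on chromosome 11, and 5 pseudogenes with an Mrp name were left out.

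Mitochondria carry their own ribosome, which translates the few messenger RNAs of the mitochondrial genome into core subunits of the respiratory chain and ATP synthase. Its ribosomal RNAs are encoded in mitochondrial DNA, while all its proteins are encoded in the nucleus, made in the cytosol and imported. Part of the proteins descend from those of the bacterial ribosome, and others were added in the eukaryotic lineage. In myeloid cells mitochondrial content and respiration differ between lineages, and neutrophils are known for relying largely on glycolysis.

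Marrow from BALB/c mice, either wild type (WT) or labelled Cysltr1-/-, was kept for 4 days in medium with 40 ng/mL GM-CSF, a growth factor for granulocytes and macrophages that all groups received. One group of each genotype had GM-CSF alone. A second also had 40 ng/mL IL-6, a cytokine that signals through STAT3, and the third had 50% (v/v) medium that EMT6 mouse mammary carcinoma cells had conditioned for 24 h, here EMT6 medium. Each of the 6 groups has 3 samples, each from a pool of 3 mice. Cysltr1 encodes a receptor for cysteinyl leukotrienes, and the labels do not give which part of it was deleted. Its own reads were not lower in the libraries labelled Cysltr1-/-, at 75.2 to 78.7 CPM (the count of a gene scaled to a common library size) under GM-CSF alone against 57.6 to 62.8 in WT, so the genotype labels could not be checked on the gene, and every genotype comparison below rests on the labels.

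Libraries held 9583728 to 31989342 gene counts. Those of EMT6 medium were the shallowest and had the most reads outside annotated genes, with means of 36.2% in WT and 50.2% in Cysltr1-/- against 14.2% to 19.5% in the other groups. All 10 neutrophil markers checked (S100a8, Ly6g, Camp and others) were detected, and their summed level went from 11975 to 13052 CPM in WT with GM-CSF to 6963 to 7274 with IL-6 and 2229 to 2537 in EMT6 medium. In Cysltr1-/- libraries the same sums were 5092 to 5361, 2623 to 2709 and 1472 to 1762 CPM. For 7 macrophage and monocyte markers they were 2764 to 3038, 3225 to 3419 and 1722 to 1854 CPM in WT, then 2185 to 2236, 2451 to 2562 and 1011 to 1154. Other lists moved with EMT6 medium too. In WT the sums with GM-CSF alone and in EMT6 medium were 885 to 969 and 113 to 116 CPM for 6 dendritic cell markers, 818 to 881 and 39.5 to 42.9 for 5 epithelial ones, 581 to 662 and 841 to 946 for 4 eosinophil ones, 115 to 118 and 302 to 330 for 5 B cell ones, and 255 to 267 and 131 to 138 for 5 mast cell or basophil ones. In Cysltr1-/- the sums of these lists went the same way, with eosinophil markers at 157 to 177 and 524 to 592 CPM. Single genes did not all follow these sums. In EMT6 medium in WT 3 of the 5 epithelial markers were called higher and 2 lower, and in Cysltr1-/- 4 higher and 1 lower. Of the 4 eosinophil markers 2 were called higher and 2 lower in each genotype. Of the 7 macrophage and monocyte markers 2 were called higher and 5 lower in WT, and 2 and 4 in Cysltr1-/-. With IL-6 these markers split into 4 higher and 3 lower in WT, and 3 and 3 in Cysltr1-/-. Of the 10 neutrophil markers 2 were called higher and 8 lower with IL-6 in each genotype. In EMT6 medium all 10 were lower in WT, and 9 were lower and 1 higher in Cysltr1-/-. Markers of T or NK cells, erythroid cells and fibroblasts had sums of at most 74.8 CPM in each group. No marker of any list was at 0 in a whole group. In bulk libraries fewer cells of a type and less RNA per cell cannot be told apart, and the part of cell makeup in the results below was not tested.

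The promoters of the members hold short sequences known from other promoters of genes for mitochondrial proteins. Of the members, 69 matched the RefSeq promoter table (GRCm38.p6, 250 bases before to 50 after each start), with 75 promoters. Sequences are shown, 5′ to 3′ and up to base 30 after the start, for the members with the largest falls in EMT6 medium in either genotype, Mrps2 and Mrps27, for the member with the largest rise, Mrpl45, for Mrps18b, which was higher in Cysltr1-/- with GM-CSF alone and in EMT6 medium, and for Mrpl46 and Mrps11, which start from one shared region on opposite strands. Capitals mark matches to the 4 motifs searched on both strands: the NRF1 core GCGCATGCG, the ETS motif CCGGAAG bound by GABPA, the YY1 motif AAGATGGC and the E-box CACGTG, none of which contains another.
Mrps2, chr2:28467816-28468095, plus strand: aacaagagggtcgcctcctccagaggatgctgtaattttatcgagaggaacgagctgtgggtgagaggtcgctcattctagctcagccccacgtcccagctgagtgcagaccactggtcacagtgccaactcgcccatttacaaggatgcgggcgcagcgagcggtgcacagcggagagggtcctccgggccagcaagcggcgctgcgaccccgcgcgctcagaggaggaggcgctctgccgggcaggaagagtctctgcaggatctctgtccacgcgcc
Mrps27, chr13:99344536-99344815, plus strand: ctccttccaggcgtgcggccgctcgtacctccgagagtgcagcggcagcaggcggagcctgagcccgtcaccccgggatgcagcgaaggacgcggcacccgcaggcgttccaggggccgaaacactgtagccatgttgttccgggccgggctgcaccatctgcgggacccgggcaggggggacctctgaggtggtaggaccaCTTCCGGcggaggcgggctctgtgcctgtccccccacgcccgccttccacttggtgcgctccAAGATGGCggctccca
Mrpl45, chr11:97315466-97315745, plus strand: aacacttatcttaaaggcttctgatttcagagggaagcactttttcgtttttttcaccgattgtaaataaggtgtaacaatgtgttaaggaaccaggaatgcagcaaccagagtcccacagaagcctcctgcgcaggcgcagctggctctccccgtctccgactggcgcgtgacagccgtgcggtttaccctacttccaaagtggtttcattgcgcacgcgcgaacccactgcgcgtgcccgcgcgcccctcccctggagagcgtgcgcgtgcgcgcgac
Mrps18b, chr17:35916411-35916690, minus strand: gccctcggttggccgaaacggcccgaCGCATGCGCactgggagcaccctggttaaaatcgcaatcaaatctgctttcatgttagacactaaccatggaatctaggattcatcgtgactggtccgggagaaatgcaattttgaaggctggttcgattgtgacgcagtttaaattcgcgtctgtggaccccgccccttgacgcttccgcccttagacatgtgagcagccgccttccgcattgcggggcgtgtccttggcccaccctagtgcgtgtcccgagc
Mrpl46, chr7:78783060-78783339, minus strand: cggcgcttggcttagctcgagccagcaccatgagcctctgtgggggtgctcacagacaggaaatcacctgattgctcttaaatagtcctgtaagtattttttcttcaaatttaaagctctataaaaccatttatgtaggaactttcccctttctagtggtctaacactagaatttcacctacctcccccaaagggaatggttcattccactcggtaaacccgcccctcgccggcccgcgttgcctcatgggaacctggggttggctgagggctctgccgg
Mrps11, chr7:78782881-78783160, plus strand: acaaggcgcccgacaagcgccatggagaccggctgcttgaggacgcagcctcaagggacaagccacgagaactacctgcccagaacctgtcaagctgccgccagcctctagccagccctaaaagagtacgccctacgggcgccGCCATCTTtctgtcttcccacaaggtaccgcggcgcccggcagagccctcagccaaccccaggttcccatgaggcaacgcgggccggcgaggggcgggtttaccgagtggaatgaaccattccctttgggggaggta

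In these windows Mrps27 had an ETS motif at -48 and a YY1 motif at 15 from its start, Mrps18b an NRF1 core at -224 and an ETS motif at 44 (beyond the bases shown), and Mrps11 a YY1 motif at -107. The windows of Mrps2, Mrpl45 and Mrpl46 held none of the 4, which says only that these letters are not in them. Across the family the ETS motif was the most frequent. It was in 34.7% of member promoters, against 8.86% of all 32851 promoters of the table and 11.6% of the 21263 that belong to protein-coding genes. The YY1 motif was in 16% of member promoters and 3.05% of protein-coding ones, and the NRF1 core in 9.33% and 2.35%. At least 1 of these 3 was in 50.7% of member promoters, against 15.8% of protein-coding ones. The E-box, to which MYC binds, was in 9.33% and 7.84%. These are shares of sequence matches, and no binding was measured.

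Members also often lay head to head with a neighbour. For 33 of 78 members (42.3%) a protein-coding gene on the other strand started within 1000 bases or overlapped head to head within that distance, against 12.9% of the protein-coding genes tested. Several partners encode other mitochondrial proteins: Mrps12 faces Sars2, a mitochondrial seryl-tRNA synthetase, with starts 172 bases apart. Mrpl36 faces Ndufs6 and Mrpl47 faces Ndufb5, both subunits of respiratory complex I. Mrpl43 faces Twnk, the helicase of mitochondrial DNA, and Mrps27 faces Ptcd2, a pentatricopeptide repeat protein.

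Nearly the whole family was expressed at moderate levels. Per kilobase of exon (all exons of a gene merged), mean levels over the 18 libraries had a median of 10.5 CPM per kb, with CPM scaled by TMM factors here and below. The highest were Mrpl45, whose product lies at the exit of the peptide tunnel and anchors the ribosome to the inner membrane, at 64.7 CPM per kb, Mrpl52 at 60.7, Mrpl14 at 51.8, Mrps21 at 49.2 and Mrpl34 at 42.3. The lowest tested members were Mrpl48 at 1.97, Mrps10 at 2.14, Mrpl47 at 2.17 and Mrps5 at 2.57 CPM per kb. Mrpl53 reached 0.15 CPM per kb, with 44 counts in all 18 libraries and 1 to 6 in each. In the annotation 88.0% of its exon bases overlap other genes (Ccdc142os and Gm42688), so its level could not be read from these counts. Another 9 members overlap other genes over more than 20% of their exon bases, among them Mrps34 (77.8%), Mrps25 (69.8%), Mrps18b (30.5%) and Mrps27 (24.2%), and their values carry that uncertainty because no strand setting is given.

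As a share of all gene counts the family stayed within a narrow range. It took 0.218% to 0.246% of gene counts in WT with GM-CSF, 0.208% to 0.212% with IL-6 and 0.224% to 0.237% in EMT6 medium. In libraries labelled Cysltr1-/- the shares were 0.254% to 0.263%, 0.235% to 0.239% and 0.234% to 0.247%. The IL-6 libraries thus lay below those with GM-CSF alone in both genotypes without overlap, and each Cysltr1-/- group lay above its WT group under GM-CSF alone and with IL-6. In EMT6 medium Mrpl45 alone made up 13.0% ± 0.215 (SD, n = 3) of the family's counts in WT and 13.5% ± 0.848 in Cysltr1-/-, against 5.00% ± 0.203 and 3.62% ± 0.13 with GM-CSF alone. With TMM factors, which scale each library by a trimmed mean of its gene ratios, the family's summed level was 2635 to 2872 CPM in WT with GM-CSF, 2475 to 2546 with IL-6 and 1870 to 1974 in EMT6 medium. The Cysltr1-/- sums were 2765 to 2901, 2505 to 2581 and 1664 to 1770 CPM. The EMT6 medium libraries thus lay below those with GM-CSF alone in both genotypes after TMM scaling. As a share of gene counts they did so in Cysltr1-/-, while in WT the groups overlapped. Without Mrpl45 the shares did not overlap in WT either, at 0.195% to 0.206% in EMT6 medium against 0.207% to 0.234%, and in Cysltr1-/- they were 0.20% to 0.215% against 0.245% to 0.253%.

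**Figure D1:**
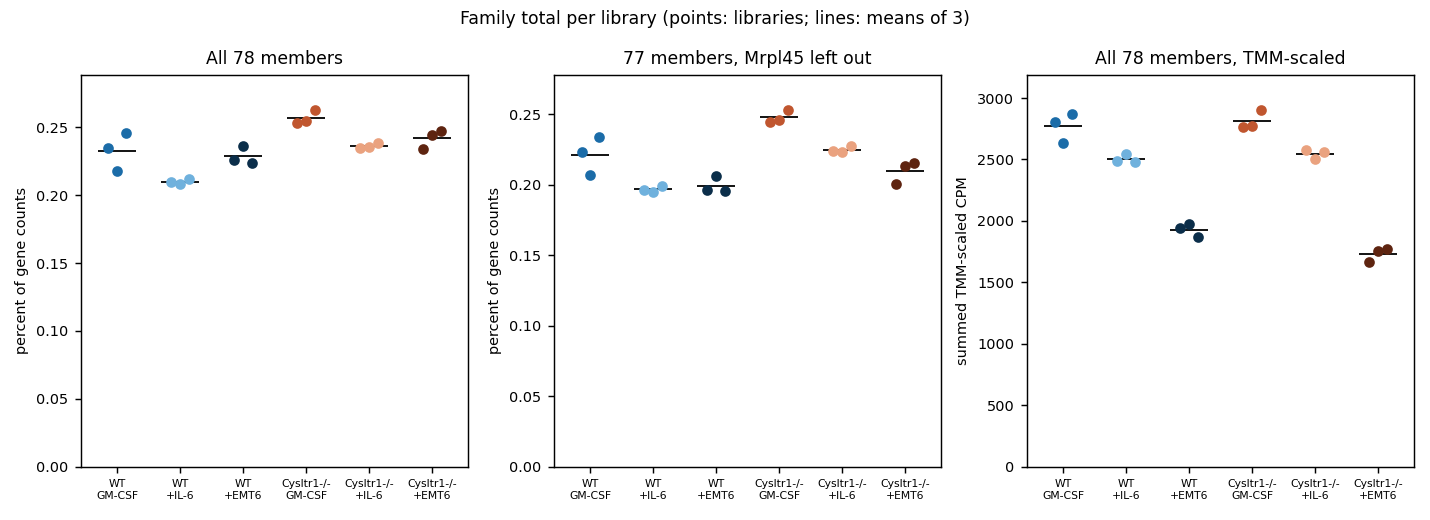
Total of the mitochondrial ribosomal protein genes in each of the 18 libraries (points) with group means of 3 (lines), as percent of gene counts for all 78 members, the same without Mrpl45, and as summed TMM-scaled CPM. The EMT6 medium libraries are lowest on the TMM scale, at 1870 to 1974 CPM in WT and 1664 to 1770 in Cysltr1-/-, and lie within or near the other groups as percent of gene counts.

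Most members fell in EMT6 medium. In WT, 68 of 77 members fell and 3 rose, where 34.5% of all 28334 genes tested were called lower and 46.8% higher (edgeR quasi-likelihood test, adjusted p under 0.05). The median log2 fold change of the members was -0.67, against 0.49 over all genes tested. For 71 of the 77 members the 3 EMT6 medium libraries did not overlap the 3 with GM-CSF alone. The same count was not made over all genes tested, so it cannot be read as particular to the members. Genes of like abundance moved in the same direction: of the 11275 genes with a mean of at least 5 CPM, 71.9% were called lower and their median was -0.57. The direction of the median held in 14 alternatives, and its size followed the scaling. Without TMM factors (library sizes alone), which shifts the median of all genes by 0.49, 43 members fell and 11 rose with a median of -0.18.

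The largest falls in WT were in genes of both subunits. Mrps27, a small-subunit pentatricopeptide repeat protein without a bacterial counterpart (chromosome 13, 99344786 to 99415562, plus strand), had 17.2, 16.4 and 18.2 CPM with GM-CSF and 4.34, 4.28 and 4.40 in EMT6 medium. The groups were far apart, and the log2 fold change was -1.99 ± 0.106 (SE), with an edgeR adjusted p of 4.56e-21. Mrps2, counterpart of a bacterial small-subunit protein (chromosome 2, 28468066 to 28471178, plus strand), had 29.0, 27.0 and 27.5 CPM with GM-CSF and 7.22, 8.19 and 9.07 in EMT6 medium. That is a 3.42-fold lower level (edgeR adjusted p = 9.76e-24). Mrpl3, whose bacterial counterpart lies near the peptidyl transferase centre (chromosome 9, 105053239 to 105079888), went from 34.6 to 36.3 CPM to 12.2 to 13.6, 2.78-fold lower. Mrps28, Mrpl36 and Mrps5 had log2 fold changes of -1.55, -1.32 and -1.31. For these 6 genes the fall was called in each of 14 alternatives, among them library sizes alone, with log2 fold changes for Mrps27 between -2.15 and -1.50 and for Mrps2 between -1.92 and -1.28.

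Mrpl45 went the other way. It had 139, 137 and 138 CPM in WT with GM-CSF and 257, 254 and 241 in EMT6 medium, a 1.81-fold higher level (chromosome 11, 97315716 to 97329920; edgeR adjusted p = 9.41e-20). In Cysltr1-/- libraries it went from 98.2, 98.2 and 110 CPM to 240, 226 and 231, which is 2.28-fold higher. Both rises were called in each of 14 alternatives. Mrpl16, a large-subunit protein with a bacterial counterpart, rose in WT by a log2 fold change of 0.36, from 18.1 to 20.2 CPM to 24.2 to 27.1, also in all 14. Mrpl1, a protein of the stalk through which transfer RNA leaves, was at 18 to 21 and 21.7 to 24.6 CPM (log2 fold change 0.20), and its call was lost in 7 of 14 alternatives. The 6 members not called in WT were Mrpl13, Mrpl14, Mrpl32, Mrpl41, Mrps18c and Mrps36, with log2 fold changes from -0.11 to 0.13.

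**Figure D2:**
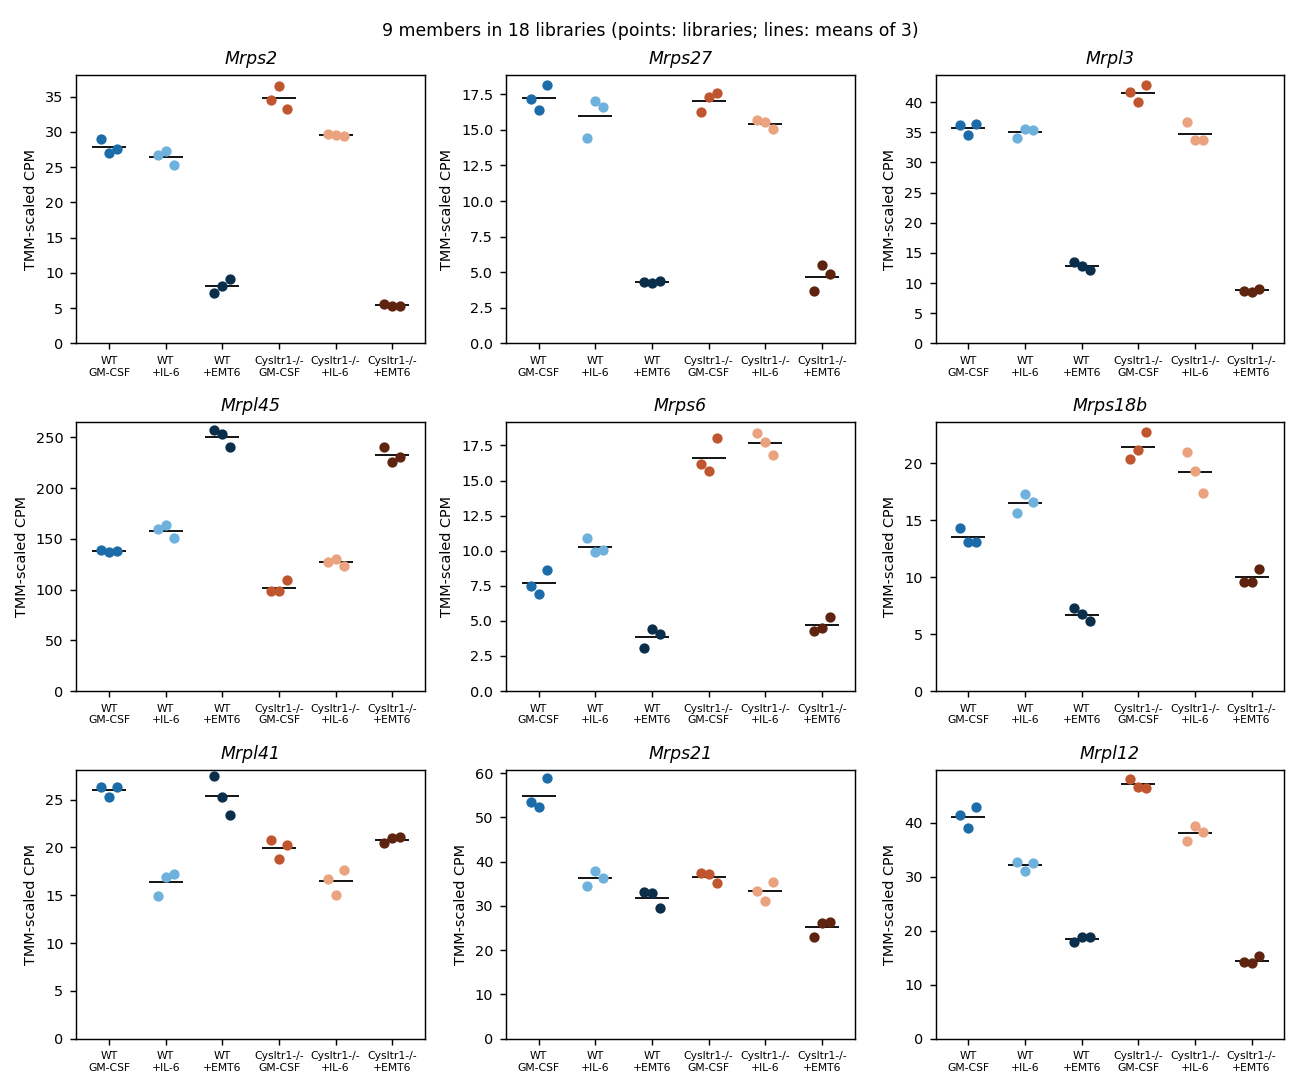
TMM-scaled CPM (vertical axes from 0) of 9 members in each of 18 libraries by genotype and culture, points for libraries and lines for means of 3. Mrps2, Mrps27 and Mrpl3 are lowest in EMT6 medium, Mrpl45 is highest there (226 to 257 CPM), and Mrps6 separates the genotypes with GM-CSF alone and with IL-6.

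In Cysltr1-/- marrow EMT6 medium gave 69 falls and 5 rises among the 77 members, where 32.9% of all genes tested were called lower and 54.3% higher. The median of the members was -0.89, that of all genes tested 0.83, and that of genes with at least 5 CPM -0.62. Of these abundant genes 69.3% were called lower and 20.5% higher. Mrps2 had the largest fall: 34.5, 36.6 and 33.2 CPM became 5.60, 5.31 and 5.30, a 6.43-fold lower level (edgeR adjusted p = 6.76e-29). Mrpl3 was 4.71-fold and Mrps5 3.82-fold lower. Reads outside genes bear on these low levels. If such reads lay evenly over the genome, they would make up 29.4% of the Mrps2 reads, 41.3% of the Mrpl3 reads and 55.1% of the Mrps5 reads in Cysltr1-/- EMT6 libraries, and a median of 8.3% over the members. With that background subtracted 62 members fell and 7 rose, with a median of -0.76. With library sizes alone 44 fell and 19 rose, with a median of -0.28 and a shift of all genes by 0.61. Other alternatives gave larger falls. The members' median was -1.16 with DESeq2, and between -1.16 and -1.08 when 1 library of the groups compared was left out. In 13 of 14 alternatives it moved by more than the spread between replicates.

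Of the 5 rises in Cysltr1-/- marrow, Mrpl45 was the one called throughout. The others, Mrpl14, Mrpl1, Mrps18c and Mrpl16, had log2 fold changes of 0.33, 0.29, 0.27 and 0.19. With DESeq2, with no low-count filter and with all but 1 of the 6 omissions of 1 library, only 1 member was called higher, and without Cysltr1-/- EMT6 medium replicate 1 there were 2. Mrpl16 changed sign in 9 of 14 alternatives.

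The response to EMT6 medium differed between genotypes for 34 members by the interaction test, 31 with a more negative and 3 with a more positive change in Cysltr1-/-. Over all genes tested 12.3% were called in the negative and 13.2% in the positive direction, and over genes with at least 5 CPM 28.9% and 21.1%. The members' median was -0.18, and it lay between -0.41 and -0.058 in 20 alternatives. The smallest was that with library sizes alone, which gave 21 negative and 7 positive calls. Mrps2 differed by -0.91 ± 0.13 (SE; edgeR adjusted p = 2.2e-07), Mrps6 by -0.79, Mrpl3 by -0.76 and Mrps5 by -0.63, each called in all 20 alternatives. The 3 positive ones were Mrpl18 (0.41), Mrpl51 (0.35) and Mrpl45 (0.33). Leaving out Cysltr1-/- GM-CSF replicate 1 left none of the positive calls, and replicate 2 left 1. The share of reads outside genes also rose more in Cysltr1-/- than in WT, and its part in this difference was not tested beyond the subtraction above.

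**Figure D3:**
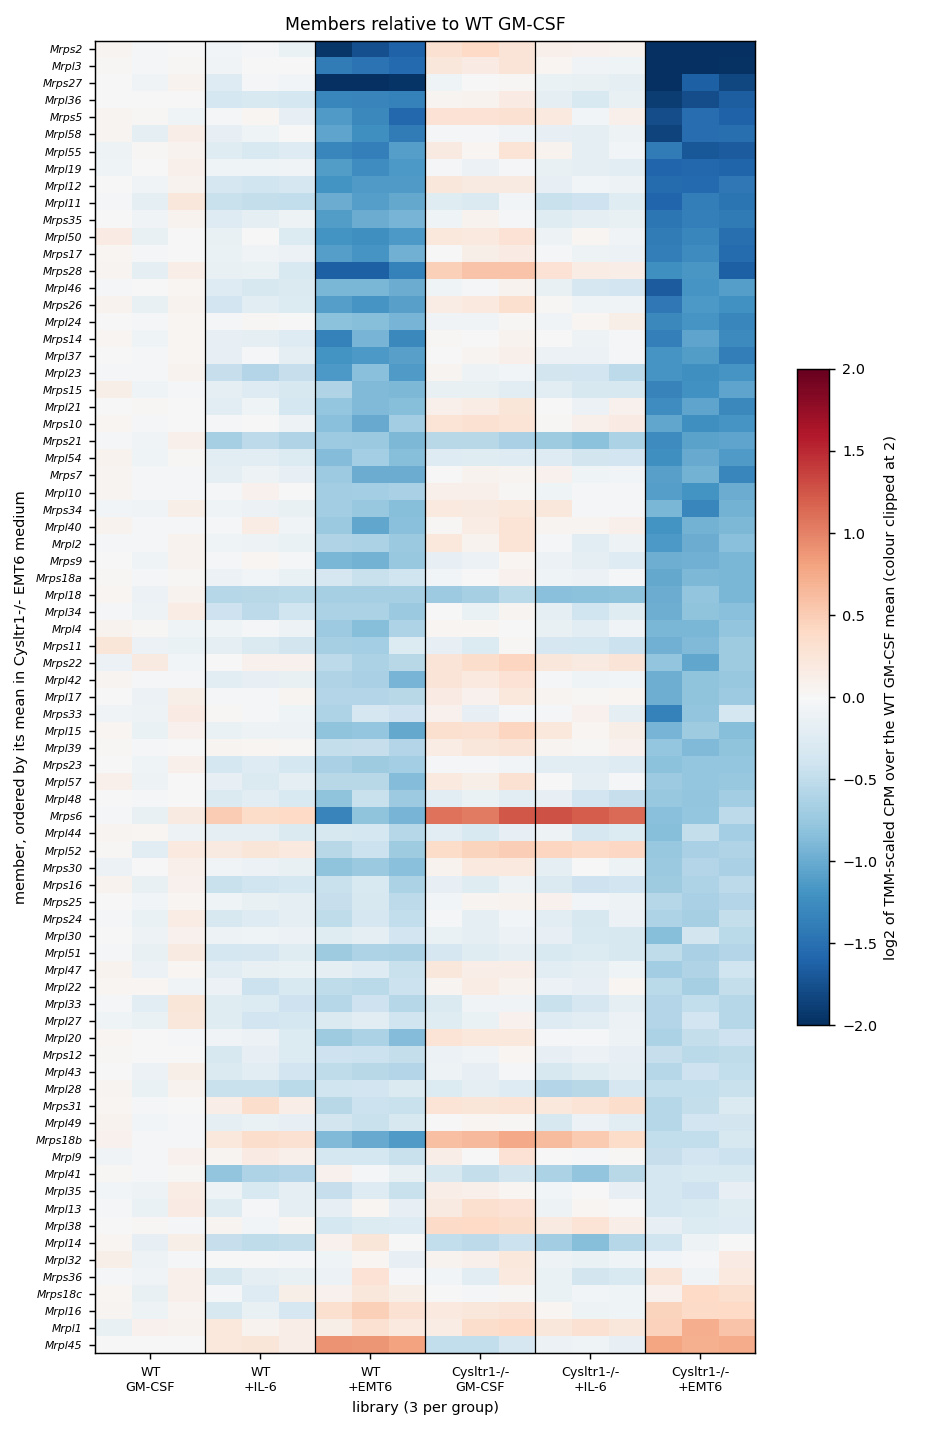
Log2 of TMM-scaled CPM over the mean of WT with GM-CSF for 77 members (rows) in 18 libraries (columns, 3 per group), ordered by the mean in Cysltr1-/- EMT6 medium, blue for lower and red for higher, with colours clipped at 2. Most rows are blue in the EMT6 medium columns, Mrpl45 at the bottom is red there, and Mrps6 is red in Cysltr1-/- with GM-CSF and with IL-6.

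IL-6 lowered a large part of the family by small amounts. In WT, 34 of 77 members fell and 5 rose, where 11.3% of all genes tested were called lower and 10.4% higher. The median of the members was -0.16 against -0.03 over all genes tested and 0.01 over genes with at least 5 CPM, of which 23.7% were called lower. Of the 77 members 65 had a log2 fold change below 0. The median lay between -0.21 and -0.12 in 14 alternatives. No member changed 2-fold.

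Mrpl41, a large-subunit protein without a bacterial counterpart (chromosome 2, 24974117 to 24975098, minus strand), had the largest fall with IL-6 in WT. It had 26.4, 25.3 and 26.3 CPM with GM-CSF and 15.0, 16.9 and 17.3 with IL-6, 1.59-fold lower (edgeR adjusted p = 8.2e-10). In EMT6 medium it was at 23.4 to 27.5 CPM, overlapping the GM-CSF libraries. Mrps21, counterpart of a bacterial small-subunit protein, went from 53.4, 52.3 and 59.0 CPM to 34.6, 38.0 and 36.2 (1.52-fold lower). Mrpl18 was 1.48-fold, Mrpl23 1.42-fold, Mrpl11 1.42-fold and Mrpl14 1.41-fold lower. All 6 falls were called in each of 14 alternatives.

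The rises with IL-6 in WT were Mrps6, Mrps18b, Mrps31, Mrpl45 and Mrpl52. Mrps6, counterpart of a bacterial small-subunit protein (chromosome 16, 92058270 to 92112227), had 7.48, 6.93 and 8.62 CPM with GM-CSF and 10.9, 9.91 and 10.0 with IL-6, 1.32-fold higher (edgeR adjusted p = 0.0025). It shares 19.9% of its exon bases with other genes, among them Slc5a3, a myo-inositol transporter. Mrps18b went from 13.0 to 14.3 CPM to 15.7 to 17.3. Mrps31 had a log2 fold change of 0.20 at an edgeR adjusted p of 0.0499, and its call was lost in 7 of 14 alternatives. For Mrpl52 the groups overlapped, at 56.9 to 74.7 and 74.4 to 77.8 CPM. Leaving out WT GM-CSF replicate 1 or 2, or WT IL-6 replicate 2, left 3 rises.

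In Cysltr1-/- marrow IL-6 gave 28 falls and 1 rise, where 8.77% of all genes tested were called lower and 5.54% higher. The median of the members was -0.16, as in WT, and that of all genes tested 0.02. Genes with at least 5 CPM had a median of -0.04, and 20.2% of them were called lower. The number of falls was 19 to 23 when 1 library of the groups compared was left out. It was 24 with library sizes alone and 41 with only the groups compared. Mrpl45 was the rise (log2 fold change 0.32), from 98.2 to 110 CPM to 123 to 131. Mrpl23 had the largest fall, from 22.2 to 24.7 CPM to 16.5 to 18.5 (1.31-fold), followed by Mrps28, Mrpl47, Mrpl36, Mrpl12 and Mrpl42 with log2 fold changes from -0.35 to -0.30. Mrpl12, a stalk protein that also binds the mitochondrial RNA polymerase, fell with IL-6 in both genotypes, from 39.0 to 42.9 CPM to 31.1 to 32.7 in WT and from 46.5 to 48.1 to 36.6 to 39.4 in Cysltr1-/-.

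The interaction with genotype was called for 4 members with IL-6, 3 positive (3.9%) and 1 negative (1.3%). Of all genes tested 2.92% were called positive and 4.46% negative, and of genes with at least 5 CPM 6.26% and 10.8%. Mrps21 differed by 0.47, Mrpl41 by 0.40, Mrpl18 by 0.39 and Mrps18b by -0.44. Under GM-CSF alone the first 3 lay lower in Cysltr1-/- than in WT without overlap. Mrps21, for example, had 35.1 to 37.4 CPM in Cysltr1-/- under GM-CSF and 31.2 to 35.5 with IL-6, which overlapped the 34.6 to 38.0 of WT with IL-6. Without WT GM-CSF replicate 2 there were 8 positive calls, and the negative calls were 2 without Cysltr1-/- GM-CSF replicate 2, 3 without WT GM-CSF replicate 3 and 0 without Cysltr1-/- IL-6 replicate 3. The calls of Mrps21 and Mrpl18 held in all 20 alternatives, that of Mrps18b in 19 and that of Mrpl41 in 17.

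**Figure D4:**
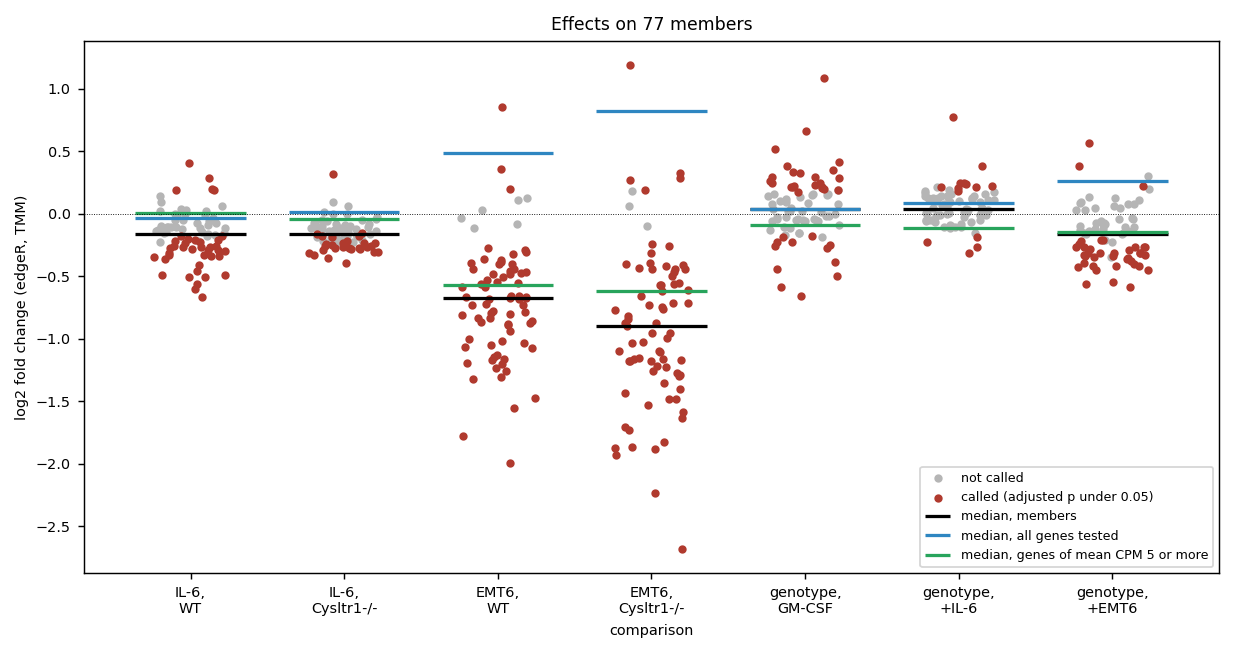
Log2 fold changes (edgeR with TMM scaling) of 77 members in 4 culture and 3 genotype comparisons, red where called, with medians of the members (black), of all 28334 genes tested (blue) and of genes with a mean of at least 5 CPM (green). In EMT6 medium the members' medians are -0.67 in WT and -0.89 in Cysltr1-/-, on the side of the abundant genes and opposite to all genes tested.

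Genotype moved members in both directions when GM-CSF was given alone. There 23 of 77 members were higher and 12 lower in Cysltr1-/-, where 10.1% of all genes tested were called higher and 17.2% lower, and the medians were 0.04 for both. Without WT GM-CSF replicate 2 the members' median was 0.0092, without Cysltr1-/- GM-CSF replicate 3 it was 0.018, and with no low-count filter 0.12. Genes with at least 5 CPM had a median of -0.09, and 17.8% of them were called higher and 37.9% lower. Of the members 29.9% were higher and 15.6% lower, so their share of lower calls was near that of all genes tested. With library sizes alone, which shifts all genes by 0.12, 40 members were higher and 5 lower. Mrps6 had the largest difference, at 16.2, 15.7 and 18.0 CPM in Cysltr1-/- against 7.48, 6.93 and 8.62 in WT, 2.13-fold higher (edgeR adjusted p = 1.41e-12). Mrps18b was 1.58-fold higher, at 20.3 to 22.8 CPM against 13.0 to 14.3 (chromosome 17, 35910379 to 35916389, minus strand), and Mrps28 and Mrpl52 1.43-fold and 1.34-fold. Lower in Cysltr1-/- were Mrpl18 (25.9 to 29.5 CPM against 39.4 to 45.2), Mrps21, Mrpl14 and Mrpl45, by 1.57-fold, 1.5-fold, 1.41-fold and 1.36-fold. These 8 differences were called in each of 14 alternatives. Of 12 cell cycle genes 11 were lower and 1 higher in Cysltr1-/- under GM-CSF alone (median -1.38), and of 25 assembly factors 7 were higher and 1 lower.

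With IL-6, 10 members were higher and 4 lower in Cysltr1-/-, where 12.1% of all genes tested were called higher and 18.4% lower, with medians of 0.04 and 0.09. Of genes with at least 5 CPM 12.4% were called higher and 41.8% lower (median -0.12). The members' share of higher calls, 13.0%, was near both, and their share of lower calls was 5.2%. The members' count depended strongly on the scaling: with library sizes alone, which shifts all genes by 0.14, 45 members were higher and 1 lower. Mrps6 was again the largest, at 16.8 to 18.4 CPM against 9.91 to 10.9 (1.71-fold higher), followed by Mrps28, Mrps26 and Mrpl12. Mrpl45, Mrpl18, Mrpl14 and Mrps9 were the 4 lower ones, and the calls of Mrpl14 and Mrps9 were lost in 5 and 7 of 14 alternatives. Without Cysltr1-/- IL-6 replicate 2 there were 2 lower members.

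In EMT6 medium 35 members were lower and 3 higher in Cysltr1-/-, where 19.8% of all genes tested were called lower and 32.3% higher. Of genes with at least 5 CPM 45.8% were called lower and 16.3% higher, so the members' share of lower calls, 45.5%, was near theirs. Medians were -0.16 for the members, 0.27 for all genes tested and -0.15 for genes with at least 5 CPM. The members' median changed sign in 1 of 14 alternatives. With library sizes alone, which shifts all genes by 0.24, 21 members were higher and 8 lower and the median was 0.08. With DESeq2 size factors in edgeR 54 were lower and 2 higher (median -0.26). When 1 library of the groups compared was left out the median lay between -0.30 and -0.20, each time below that of the main fit. Falls called in all 14 alternatives were those of Mrps2 (5.30 to 5.60 CPM against 7.22 to 9.07), Mrps18a (20.1 to 21.9 against 29.8 to 32.5), Mrpl3 and Mrpl36. Mrps18b stayed higher in Cysltr1-/-, at 9.58 to 10.7 CPM against 6.15 to 7.27, as did Mrpl1. Mrpl20 was higher by 0.22 on the log2 scale, and its call was lost in 9 of 14 alternatives. Without Cysltr1-/- EMT6 medium replicate 2, 53 members were lower. Mrps6 no longer differed beyond the threshold, with a log2 fold change of 0.30 ± 0.15 (SE; edgeR adjusted p = 0.087).

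Members were also counted by symbol and by the origin of the protein. In EMT6 medium 41 of 48 members with an Mrpl symbol and 27 of 29 with an Mrps symbol fell in WT, with medians of -0.66 and -0.79. The 3 rises in WT all had an Mrpl symbol. Of the members listed with a bacterial homologue 40 of 46 fell (median -0.71), and of those listed without one 28 of 31 (median -0.66). The list was not checked against protein sequences, and it places Mrps28 and Mrps36 among those without one. With IL-6 24 of 48 Mrpl and 10 of 29 Mrps genes fell in WT, and 22 and 6 in Cysltr1-/-. By genotype in EMT6 medium 25 of 46 members with a bacterial homologue and 10 of 31 without one were lower in Cysltr1-/-. None of these differences was tested, and the symbol does not always name the subunit. Mrps18a, Mrps18b and Mrps18c descend from a single bacterial protein, and the first resides in the large subunit. In EMT6 medium in WT their log2 fold changes were -0.39, -1.0 and 0.13, and the genotype difference with GM-CSF alone was 0.00, 0.66 and -0.02.

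Members with other known roles were read separately. Mrps30, which despite its name belongs to the large subunit, fell in EMT6 medium by 0.81 on the log2 scale in WT. Mrpl58, a peptidyl-tRNA hydrolase that frees stalled ribosomes, had 22.1 to 27.7 CPM with GM-CSF and 9.55 to 12.2 in EMT6 medium in WT. Mrps12, part of the decoding centre, went from 20.2 to 20.6 CPM to 14.6 to 15.3. Mrps36, now known as a component of the oxoglutarate dehydrogenase complex and not of the ribosome, was at 9.64 to 10.8 and 9.35 to 12.4 CPM, with overlapping groups and an edgeR adjusted p of 0.78.

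Most other genes of mitochondrial translation were called lower in EMT6 medium, as were 71.9% of the genes with at least 5 CPM. In WT this held for 4 of 5 subunit genes without an Mrp symbol, 19 of 25 assembly factors, 13 of 14 translation factors, 16 of 17 aminoacyl-tRNA synthetases and 9 of 12 genes of mitochondrial DNA transcription and replication, with medians of -0.74, -0.71, -0.79, -1.04 and -0.70. As shares these are 80%, 76%, 92.9%, 94.1% and 75%, so those of subunits, assembly factors and mitochondrial DNA genes lie near that of the abundant genes. Lrpprc, which stabilises mitochondrial messenger RNA, had a log2 fold change of -2.72, Tufm, the elongation factor that delivers aminoacyl-tRNA, -0.97, Polrmt, the mitochondrial RNA polymerase, -0.69, and Tfam, which packages mitochondrial DNA, -0.55. Of the small-subunit proteins without an Mrp symbol, Ptcd3 had -1.14, while Dap3 had -0.08 and was not called. Of 10 regulators linked to such genes 6 fell and 2 rose, among them Myc (-2.37) and Ppargc1a (2.30). All 12 cell cycle genes fell as well in WT (in Cysltr1-/- 10 fell and 1 rose), and their part in the members' falls was not tested. The 78 cytosolic ribosomal protein genes tested had a median of -0.51, with 71 falls and 1 rise.

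The products of mitochondrial DNA split. All 13 protein-coding mitochondrial genes fell in EMT6 medium in WT, with a median of -2.74, from -0.80 for mt-Co1 to -4.13 for mt-Nd4l. Both ribosomal RNAs rose, mt-Rnr1 by 1.08 and mt-Rnr2 by 0.68 on the log2 scale. In Cysltr1-/- marrow the 13 also fell (median -3.17), and the ribosomal RNAs rose by 0.95 and 0.17. Libraries were made from poly(A) RNA, so the ribosomal RNA values cover only what such a selection retains. As a share of gene counts the protein-coding mitochondrial transcripts took 1.32% ± 0.086 (SD, n = 3) in WT with GM-CSF and 0.66% ± 0.053 in EMT6 medium, and the ribosomal RNAs 0.135% ± 0.013 and 0.344% ± 0.028, so these 2 directions did not depend on TMM scaling.

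With IL-6 in WT the lists differed from the members in their counts. The median was -0.01 for the assembly factors (3 of 25 fell, 2 rose), -0.02 for translation factors (2 of 14 fell, 2 rose) and -0.06 for aminoacyl-tRNA synthetases (0 of 17 fell, 3 rose), against -0.16 for the members. Subunit genes without an Mrp symbol (3 of 5 fell, median -0.23), mitochondrially encoded proteins (8 of 13 fell, median -0.33) and cytosolic ribosomal protein genes (68 of 78 fell, median -0.28) were lower. Over all genes tested 11.3% were called lower and 10.4% higher, and the 12% and 8% of the assembly factors were near these. In Cysltr1-/- 6 of 25 assembly factors, 1 of 14 translation factors and 2 of 17 synthetases fell with IL-6, with 0 rises. There 28 of 77 members fell and 1 rose. The differences between lists were not tested. Of 12 cell cycle genes 11 fell with IL-6 in WT and in Cysltr1-/- (medians -0.78 and -0.46), and the part of these in the members' falls was not tested.

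**Figure D5:**
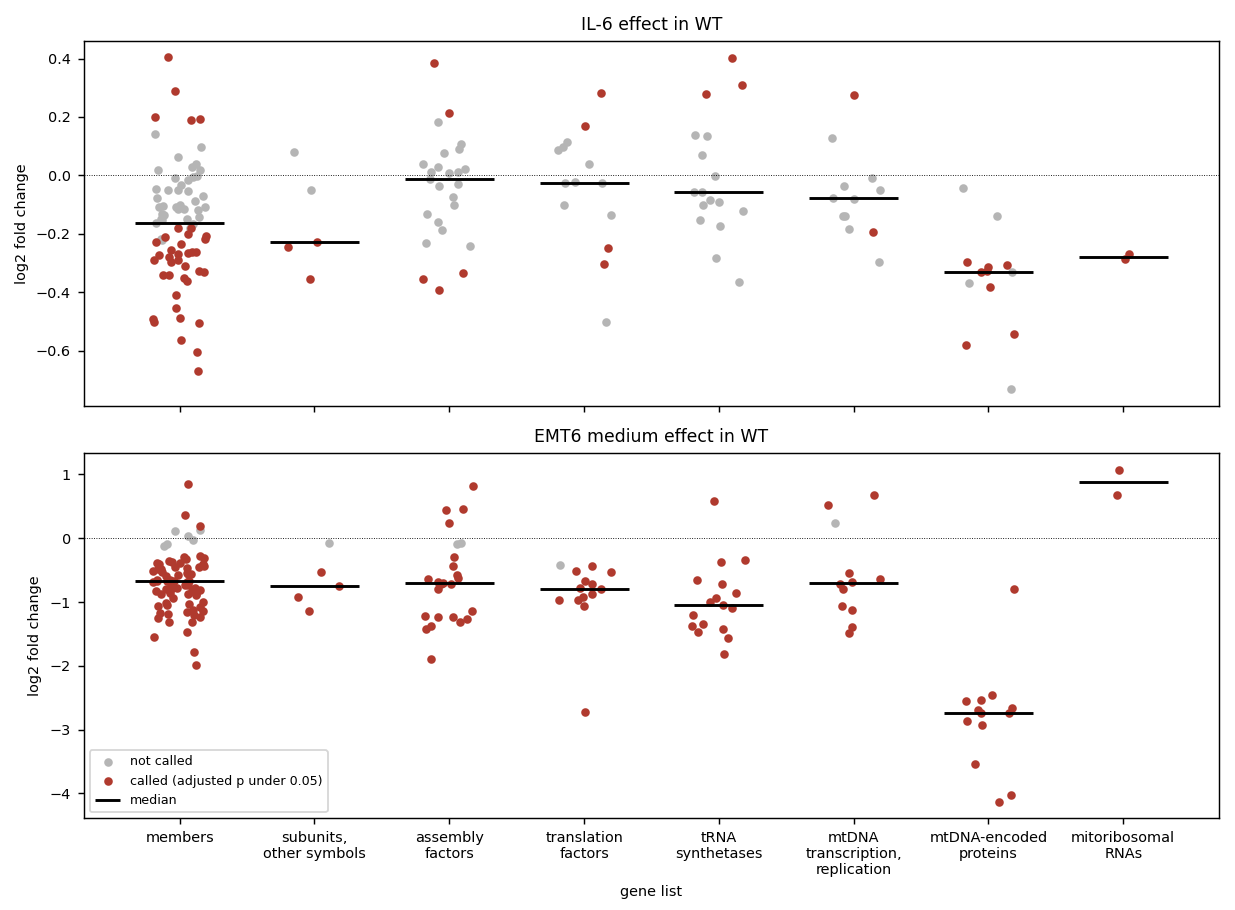
Log2 fold changes of the members and of 7 lists of related genes with IL-6 (top) and EMT6 medium (bottom) in WT, 1 point per gene, red where called, with list medians as lines. In EMT6 medium the mitochondrially encoded proteins have the lowest median (-2.74) and the 2 mitoribosomal RNAs lie above 0, while with IL-6 the members' median is -0.16.

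The size of the change was set beside other features of the genes. Over 77 members the rank correlation of the EMT6 medium effect in WT was -0.12 with transcript length, -0.15 with GC content and 0.11 with mean CPM, and for IL-6 in WT it was 0.28, -0.23 and 0.08. These describe genes that share libraries. Members up to the median transcript length and over it had medians of -0.68 and -0.67 in EMT6 medium in WT, and of -0.22 and -0.14 with IL-6, with 20 of 38 and 14 of 39 falls. Leaving out members with over 20% exon overlap left 68, with 60 falls and 3 rises (median -0.67). Leaving out those whose expected background exceeded 20% in EMT6 medium left 65, with 56 falls and 3 rises (median -0.66). Members with and without the ETS motif had medians of -0.65 (25 tested) and -0.72 (43 tested) in EMT6 medium and -0.25 and -0.15 with IL-6. Those with the YY1 motif had -0.50 (12 tested) against -0.67 (56 tested) in EMT6 medium. Those with the NRF1 core had -0.51 (7 tested) against -0.67 (61 tested) in EMT6 medium, and 0.03 against -0.20 with IL-6, where 1 of the 7 fell and 1 rose. None of these splits was tested.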

How the data were processed

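The authors deposited 1 table of raw read counts per gene for each of the 18 libraries. Poly(A) libraries were made with a NEBNext kit, per the labels' protocols, and the submitters' processing notes name HISAT2 2.1.0, HTSeq 0.13.5, DESeq2 1.34.0 and mm10. The annotation and the strand setting are not given in the sources used here. IDs were matched to GENCODE M21.

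Counts were fitted with edgeR 4.0.16 in R 4.3.3 (TMM factors, low-count filter, means for 6 groups, quasi-likelihood F test) over 28334 genes, with Benjamini-Hochberg adjustment and a threshold of 0.05. Levels are TMM-scaled CPM. The SE of a log2 fold change was derived from the test, as its absolute value divided by the square root of the F statistic. The fit was tested on simulated data. Named members are the 6 largest rises and falls per culture comparison and the 4 largest per genotype or interaction comparison, among those called and, outside interactions, with groups that do not overlap, plus the extremes of level and 8 genes with known roles. The members and lists were chosen with earlier results of these data known. Samples were treated as separate pools of mice, with no pairing by number. Whether replicates came from separate, split or shared pools could not be checked here. The fit had a common coefficient of variation of 0.048 between replicates beyond counting noise, and the adjusted p-values measure differences against that spread. DESeq2 1.42.0, other scalings, filters, background subtraction, a replicate block and omission of each library were tried as alternatives.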

Additional observations from a re-analysis of the deposited data

Results flagged for a closer look

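The response to EMT6 medium differed between the genotypes for 34 members by the interaction test in edgeR, 31 in the negative and 3 in the positive direction. Of all genes tested 12.3% and 13.2% were called, and of genes with at least 5 CPM 28.9% and 21.1%. The named members are Mrps2 (-0.91), Mrps6 (-0.79), Mrpl3 (-0.76) and Mrps5 (-0.63), as differences of log2 fold changes, Cysltr1-/- minus WT. The response to IL-6 differed for 4 members, 3 positive (3.9%) and 1 negative (1.3%). Of all genes tested 2.92% and 4.46% were called, and of genes with at least 5 CPM 6.26% and 10.8%. The 4 members were Mrps21 at 0.47, Mrps18b at -0.44, Mrpl41 at 0.40 and Mrpl18 at 0.39. These comparisons share the GM-CSF libraries with those of the culture effects.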

How the results depend on the processing

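Among the named members, 921 values under an alternative kept direction and call, 67 kept the direction and lost the call, and 12 changed sign. Of the medians, 78 moved by less than the spread between replicates, 48 by more, and 12 changed sign. Shallow EMT6 medium libraries with many reads outside genes limit the low members there. Counts are given as members higher or lower in Cysltr1-/- or in the treated group.

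With DESeq2, 1 member rose in EMT6 medium in Cysltr1-/-, 5 were higher by genotype with IL-6, 5 had a negative IL-6 interaction, and Mrpl16 in EMT6 medium in Cysltr1-/- was at -0.080. With DESeq2 size factors in edgeR these were 1, 6, 4 and -0.076, and 54 members were lower by genotype in EMT6 medium. With library sizes alone, EMT6 medium gave 11 rises and 43 falls in WT and 19 and 44 in Cysltr1-/-. Genotype then gave 40 higher and 5 lower under GM-CSF, 45 and 1 with IL-6, and 21 and 8 in EMT6 medium (median 0.084). The interactions had 5 positive with IL-6 (median 0.026), and 7 positive and 21 negative with EMT6 medium (median -0.058). With background subtracted, 7 rose in EMT6 medium in WT, genotype with IL-6 gave 23 higher and 2 lower, and the IL-6 interaction median was 0.0053. With a mean of at least 5 CPM in a group, 8 rose in EMT6 medium in each genotype, genotype gave 28 higher and 2 lower with IL-6 and 7 higher in EMT6 medium, and the IL-6 interaction had 6 positive (median 0.036). With no low-count filter, 1 rose in EMT6 medium in Cysltr1-/- (Mrps18c -0.0097, Mrpl16 -0.087), genotype gave 7 lower under GM-CSF, 16 higher with IL-6 and 56 lower in EMT6 medium. The interactions then had 3 negative with IL-6, and 0 positive and 53 negative with EMT6 medium. With only the groups compared, 3 rose in EMT6 medium in Cysltr1-/-, 31 were higher by genotype with IL-6, and the IL-6 interaction had 7 positive (median 0.019). Requiring a change of 1 log2 unit or more for a call left 0 and 0 for IL-6 in each genotype, 0 rises and 20 falls in EMT6 medium in WT, 1 and 35 in Cysltr1-/-, 1 and 0 for genotype under GM-CSF, and 0 and 0 elsewhere. The cause of these changes was not tested.

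The family's share over TMM-scaled library sizes was 0.277%, 0.250%, 0.193%, 0.281%, 0.255% and 0.173% (WT, then Cysltr1-/-, each with GM-CSF, IL-6 and EMT6 medium). Over genes with at least 5 CPM it was 0.239% and 0.249% in Cysltr1-/- with IL-6 and in EMT6 medium.

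Leaving out each library in turn gave 3 to 5 rises with IL-6 in WT, 1 to 2 rises in EMT6 medium in Cysltr1-/-, 2 to 5 members lower by genotype with IL-6 and 34 to 53 in EMT6 medium. The IL-6 interaction had 2 to 8 positive and 0 to 3 negative calls with medians from -0.048 to 0.048, and the EMT6 medium interaction 0 to 3 positive calls. In EMT6 medium in Cysltr1-/-, Mrpl1 lay between -0.018 and 0.138, Mrps18c between -0.013 and 0.150 and Mrpl16 between -0.056 and -0.0076.

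No link between same-numbered samples was seen. The correlation of their deviations from group means had a median of 0.0051, and 1 of 45 pairs was over 0.1. Of 18 libraries 7 correlated best with their own number. Taken over all genes tested, with 3 libraries a group, these correlations cannot exclude a shared pool. With the replicate block the counts were 4 rises and 34 falls for IL-6 in WT, 3 and 68 for EMT6 medium in WT, 1 and 29 and then 5 and 69 in Cysltr1-/-. Under the block genotype gave 25 higher and 12 lower, 11 and 4, and 3 and 35, and the interactions 4 and 1, and 3 and 30.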
